A study of Mus musculus with 9 samples.

Results

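mmu-miR-191-5p and mmu-miR-425-5p, written miR-191-5p and miR-425-5p from here on, are the mature microRNAs made from the 5′ arms of neighbouring hairpins that lie within the gene Dalrd3 and are copied into a shared primary transcript. They were taken by name from the scanner files of a mouse liver miRNA study, 2 of 1881 mouse miRNAs on the array. The pair was chosen by measured values: in an earlier reading of these same arrays the level of miR-425-5p stood higher after a high fat diet than after chow. The difference between the high fat diet and control groups is therefore given as a description, with no test, and the question asked is whether miR-191-5p moved with it. It could not be answered, because miR-191-5p was not detected on any of the 9 arrays.

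The animals were male mice of the inbred strain C57BL/6J, whose livers were collected at 20 weeks of age. From the age of 3 weeks, control mice were kept on chow for 17 weeks, and the mice of the high fat diet group on a feed in which fat supplied 45% of the energy. For the last 5 of those weeks, from the age of 15 weeks, the high fat diet group was given saline by gavage. The metformin group ate the same feed and was given metformin, a drug that lowers blood glucose, by gavage for those 5 weeks, at a dose the labels give as 3 mg per kg per day. No source used here says whether the control mice were also gavaged. Each group had 3 arrays, and each array measured 1 pool of liver from 4 mice of its group. The spread between arrays is thus a spread between pools, and in whole liver fewer cells of a type cannot be told apart from less RNA per cell. miR-122-5p, the defining miRNA of hepatocytes, was detected on all 3 arrays of every group.

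A miRNA is cut from a hairpin precursor and guides an Argonaute protein to messenger RNAs, which it recognises mainly through its seed, the bases 2 to 8 from its 5′ end. miR-191 and miR-425 are conserved across mammals and are found in many tissues and blood cells. miR-191-5p is often used as a reference to normalise RT-qPCR of other miRNAs, and its fall during the last steps of red blood cell formation has been tied to its targets Riok3 and Mxi1. miR-425-5p has been described as a repressor of the gene for atrial natriuretic peptide.

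The mature sequences are shown because the array reads each miRNA on its own, and they show how little the neighbours resemble each other. They come from RefSeq (build GRCm38.p6), with the seed in capitals. miR-489-3p is shown beside them because it is the other mouse miRNA that carries the seed of miR-425-5p.
miR-191-5p: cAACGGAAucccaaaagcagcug
miR-425-5p: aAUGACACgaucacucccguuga
miR-489-3p: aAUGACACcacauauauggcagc
Among the 1679 mature mouse names there, 0 others shared the seed of miR-191-5p and 1 other shared that of miR-425-5p. The 2 members therefore have different seeds, although they come from the same transcript. All 4 probes of miR-489-3p were on the array, and it was detected on 0 of 9 arrays.

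The hairpins lie on the plus strand of chromosome 9, at chr9:108568319-108568392 for Mir191 and chr9:108568777-108568861 for Mir425, with 384 bases between them. In the same RefSeq table both fall within Dalrd3. The array files name an older build (mm9) and give no positions, so nothing measured here depends on these coordinates. The hairpins are printed with the 5p and 3p mature arms in capitals, since 4 arms can be looked for on the array.
Mir191: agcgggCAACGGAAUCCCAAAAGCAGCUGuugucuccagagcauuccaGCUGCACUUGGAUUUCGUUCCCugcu
Mir425: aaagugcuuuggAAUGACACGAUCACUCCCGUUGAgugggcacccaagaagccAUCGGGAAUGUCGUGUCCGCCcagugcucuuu

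The arrays were 1-colour Agilent mouse miRNA arrays, which read each miRNA by several probes spotted many times. On 6 of the 9 arrays many spots near the left or right edge gave no signal for probes that were bright elsewhere. Strips of columns were left out there wherever at least 10% of such spots were dark, so the strips also hold spots with signal. These strips were unevenly spread over the groups, on 3 of 3 control, 2 of 3 high fat diet and 1 of 3 metformin arrays. They took 41.1% to 43.8% of miRNA spots in the control group, 0% to 53.6% in the high fat diet group and 0% to 31.1% in the metformin group. Values are given with the strips left out, as the median spot of each probe outside them, and beside that with all spots averaged. Levels are log2 of the intensity over each array's 75th percentile of detected probes, which lay between 193 and 323 with the strips left out. No spot was saturated. With the strips left out 143 miRNAs were detected on every array of some group and could be tested, and 139 with all spots.

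Of the 4 arms of the pair 1 could be tested. miR-191-5p is read by 4 probes with 30 spots per array. Over the 9 arrays 204 of its spots lay outside the strips, and 1 of them (0.49%) was well above background, on the second metformin array. Below 0 after background subtraction were 135 of the 204 (66.2%), and the median intensity of its probes ran from -3.39 to 1.61 over all arrays. The negative control spots had medians between 2.13 and 3.35, so the probes of miR-191-5p read no higher than spots made to bind nothing. In the authors' deposited table miR-191-5p stands at the lowest value of the column on all 9 arrays, from -5.67 to -4.03, which are the values listed for blank spots. Since it was detected on none of the 9 arrays, no level and no fold change is given for it. The data say that these probes did not detect miR-191-5p, not that the livers lacked it.

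**Figure D1:**
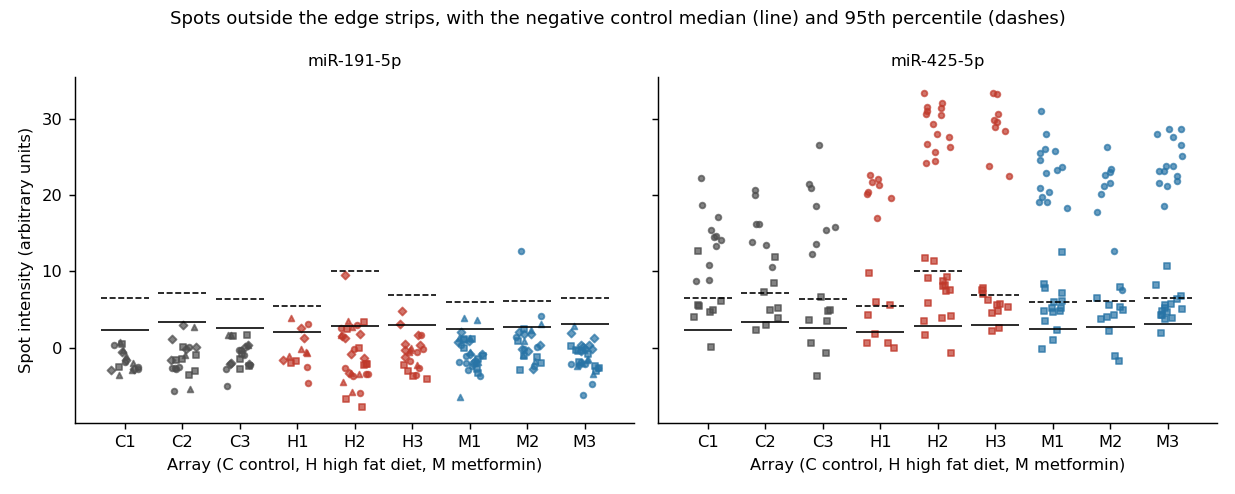
Intensity of each spot outside the edge strips (vertical axis, arbitrary units) on the 9 arrays (horizontal axis) for miR-191-5p, left, and miR-425-5p, right. Marker shapes stand for probes (the circles on the right are the brighter miR-425-5p probe), the line for the median and the dashes for the 95th percentile of each array's negative control spots. Spots of miR-191-5p lie about 0 on every array, with 1 of 204 above the dashes, while the median of the brighter miR-425-5p probe stands above the dashes on all 9.

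The opposite arms, which are usually the less stable strands of a hairpin, were also not testable. miR-191-3p had 4 of 186 spots well above background (2.15%) and 27 above the 95th percentile of the negative controls (14.5%), with probe medians from 1.08 to 6.44. Its spots were rarely negative, 17 of 186 (9.14%), unlike those of miR-191-5p. miR-425-3p had 6 of 202 spots well above background (2.97%) and 90 below 0 (44.6%). By the rule used here, more than a share of 0.5 of a probe's spots well above background, both were detected on 0 of 9 arrays. The scanner software marked miR-191-3p as detected on 1 array and miR-425-3p on 0.

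miR-425-5p was detected on all 9 arrays with the strips left out and on 8 with all spots, where the second control array fell short. It is read by a brighter and a dimmer probe with 15 spots each. The brighter probe had a median intensity of 14.5, 16.2 and 17.2 on control arrays 1, 2 and 3. It read 20.8, 29.3 and 29.6 with the high fat diet, and with metformin 23.3, 21.3 and 23.8. Before any scaling, each control array thus lay below each array of the groups on the high fat diet. The 95th percentile of the negative controls lay between 5.49 and 10.1, so the signal was present but dim. The dimmer probe had medians between 3.09 and 7.51 and was detected on 0 arrays, and its levels with the strips left out and with all spots come from the brighter one.

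The edge strips bear directly on this probe, although not all of its spots in them were dark: 5 of 37 were well above background, at 12.5 to 24.6. Inside the strips its spots had medians of 1.64, 2.81 and 0.121 on the control arrays, 2.68 and 3.8 on replicates 1 and 3 of the high fat diet and 1.54 on replicate 2 of metformin. Outside them 7 to 11 of 15 spots remained on these 6 arrays, and all 15 on the other 3. On the first high fat diet array the 8 remaining spots ran from 17.0 to 22.7, and on the first control array 11 spots ran from 8.72 to 22.3. The mean over all spots, dark ones included, lay between 9.51 and 20.6 on the 6 arrays with strips and between 23.2 and 28.8 on the 3 without.

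**Figure D2:**
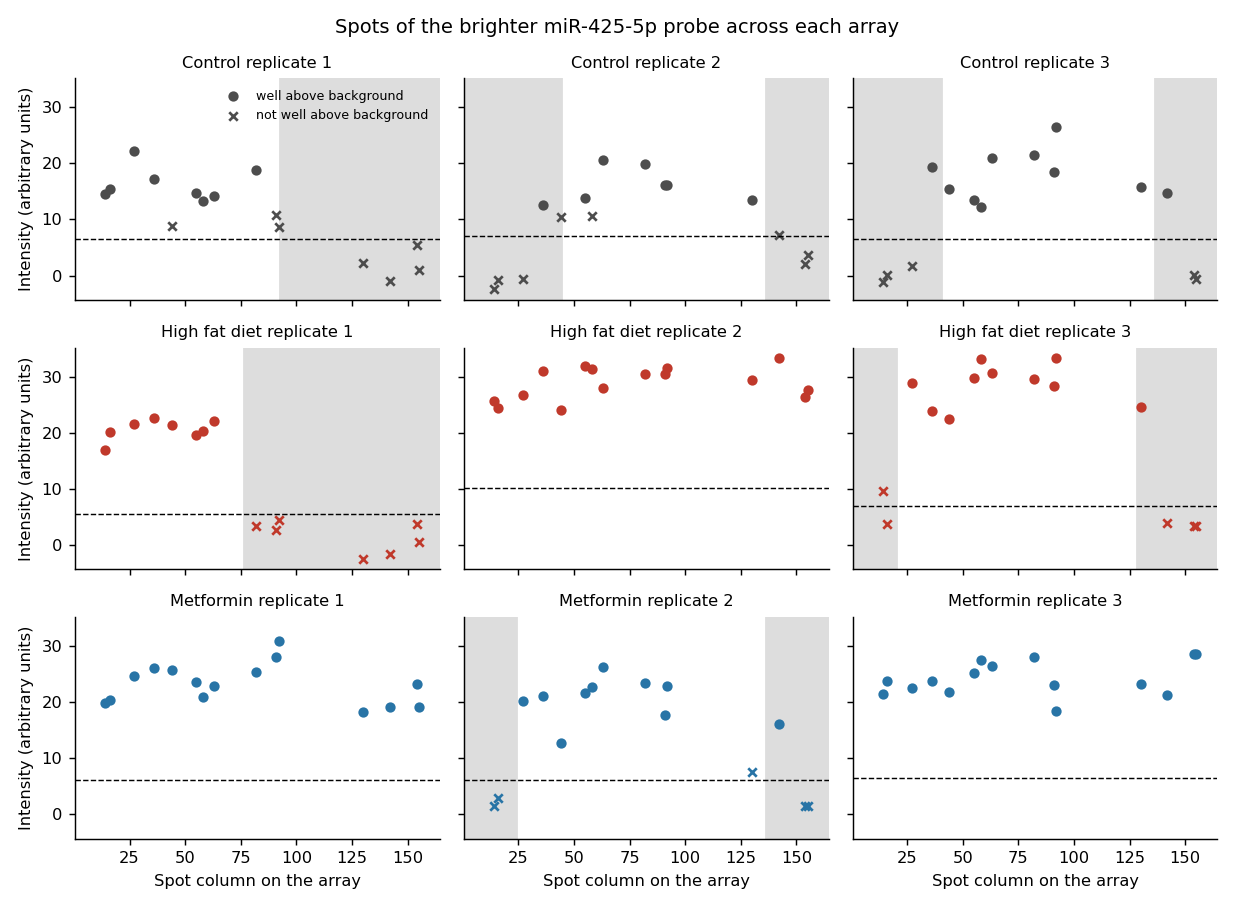
Intensity (vertical axis, arbitrary units) of the 15 spots of the brighter miR-425-5p probe by their column on the array (horizontal axis), 1 panel per array. Grey areas are the edge strips left out, circles are spots well above background, crosses are those not, and dashes mark the 95th percentile of the negative controls. Outside the grey areas the median is 14.5 to 17.2 on the control arrays and 20.8 to 29.6 on the high fat diet arrays, while inside them medians are between 0.121 and 3.8.

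After scaling, with the strips left out, the level of miR-425-5p on the control arrays was -3.73, -3.78 and -3.71. With the high fat diet it was -3.41, -3.25 and -3.45, and with metformin -3.43, -3.44 and -3.32. The control arrays lay together and below all 6 arrays of mice on the high fat diet, whose groups overlapped. The order of the groups by mean was control at -3.74 ± 0.03 (SD, n = 3), metformin at -3.40 ± 0.07 (n = 3) and high fat diet at -3.37 ± 0.11 (n = 3). Of these neighbours, metformin and high fat diet did not differ beyond their spread.

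The high fat diet group stood 1.29-fold above the control group, a log2 difference of 0.37 (SE 0.09). This contrast chose the pair, so no test is attached to it. Of all 143 tested miRNAs 14.0% passed in the same contrast by limma at an adjusted p under 0.05, and for 37.1% the arrays of the groups did not overlap (21.7% with the high fat diet higher), from which nothing is read about miR-425-5p. Over all tested miRNAs the median was 0.03, and 93.0% of them had a difference below that of miR-425-5p. The size depended on the processing: 0.16 (SE 0.18) with all spots, with overlapping groups, 0.63 when scaled on spike-in RNA and 0.69 when read from only the 3 spots that lie in columns kept on all arrays, while normexp background correction turned it to -0.12. Relative to the median of all tested miRNAs it was 0.34 with the strips left out and 0.35 when scaled on spike-in RNA. In the columns kept on all arrays, where that median was 0.17 over 99 miRNAs, it was 0.52. With all spots, where that median was -0.22, it was 0.38. It was 0.01 with normexp, which adds 50 to every spot and so more than the signal of this probe.

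In the authors' deposited table the miR-425-5p values were 0.43, -0.05 and -0.17 for control, 0.60, 0.55 and -0.23 for high fat diet and 0.19, 0.15 and 0.25 for metformin. The groups overlapped there, and the third high fat diet array was the lowest of the 9. These values equal log2 total signals of the scanner software, which uses spots in the strips as well, plus 1 constant for each array between -2.35 and -0.71. The choice of those constants is described in no source used here.

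**Figure D3:**
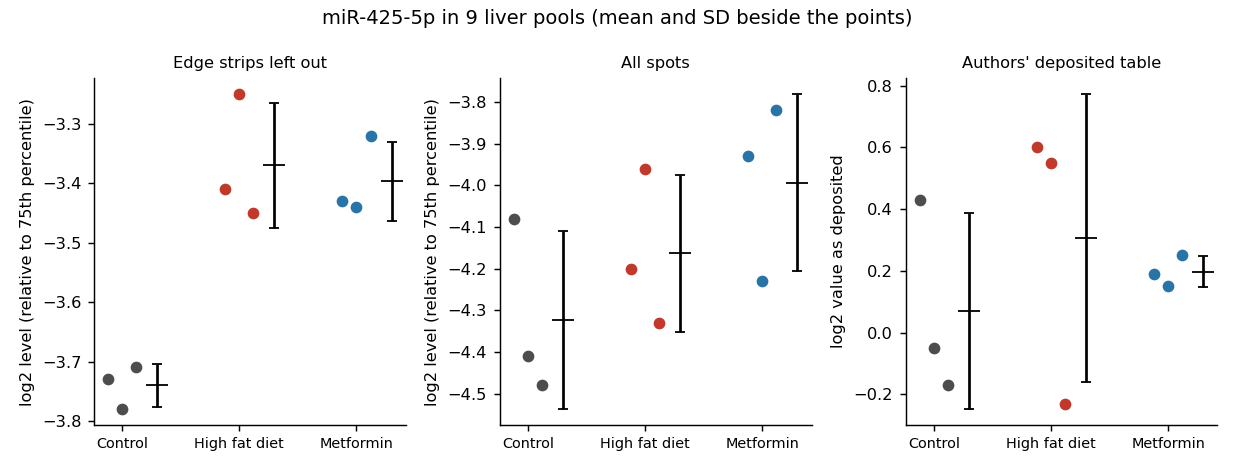
Level of miR-425-5p (vertical axis, log2) on each array by group with the edge strips left out, with all spots, and in the authors' deposited table, each panel on its own scale. Points are arrays, in order of replicate number, and bars give the mean and SD of 3. With the strips left out the control arrays (-3.78 to -3.71) lie below the high fat diet (-3.45 to -3.25) and metformin arrays (-3.44 to -3.32), and in the other panels the groups overlap.

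Metformin was set against saline in mice on the same diet, to ask whether the drug moved the miRNA. It did not pass the test: the difference for miR-425-5p was -0.03 (SE 0.09, adjusted p = 0.898 by limma) with the strips left out and 0.17 (SE 0.18, adjusted p = 0.723, range over all alternatives 0.554 to 1) with all spots. The median over all tested miRNAs was -0.06 and 0.16 in these readings, so that relative to it miR-425-5p stood at 0.03 and 0.01. In this contrast 1.40% of 143 miRNAs passed with the strips left out, and 0 of 139 passed by limma with all spots, with 15 at an unadjusted p under 0.05. The high fat diet arrays are shared with the contrast that chose the pair.

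The metformin group was also set against control, to ask whether miR-425-5p stood apart from chow under diet and drug together. All 3 metformin arrays lay above all 3 control arrays with the strips left out, as for 12.6% of tested miRNAs (25.9% in either direction), and the difference was 1.27-fold (log2 0.34, SE 0.09). It did not pass over all miRNAs (adjusted p = 0.0933 by limma, range over all alternatives 0.0126 to 0.952), where 1.40% of 143 passed. With all spots the difference was 0.33 (SE 0.18, adjusted p = 0.512) and the groups overlapped. Exact permutation tests, two-sided, gave p = 0.10 with the strips left out, the smallest that 3 against 3 arrays allow, and p = 0.200 with all spots. The control arrays are shared with the contrast that chose the pair, so this is no separate support for the difference seen with the diet alone.

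**Figure D4:**
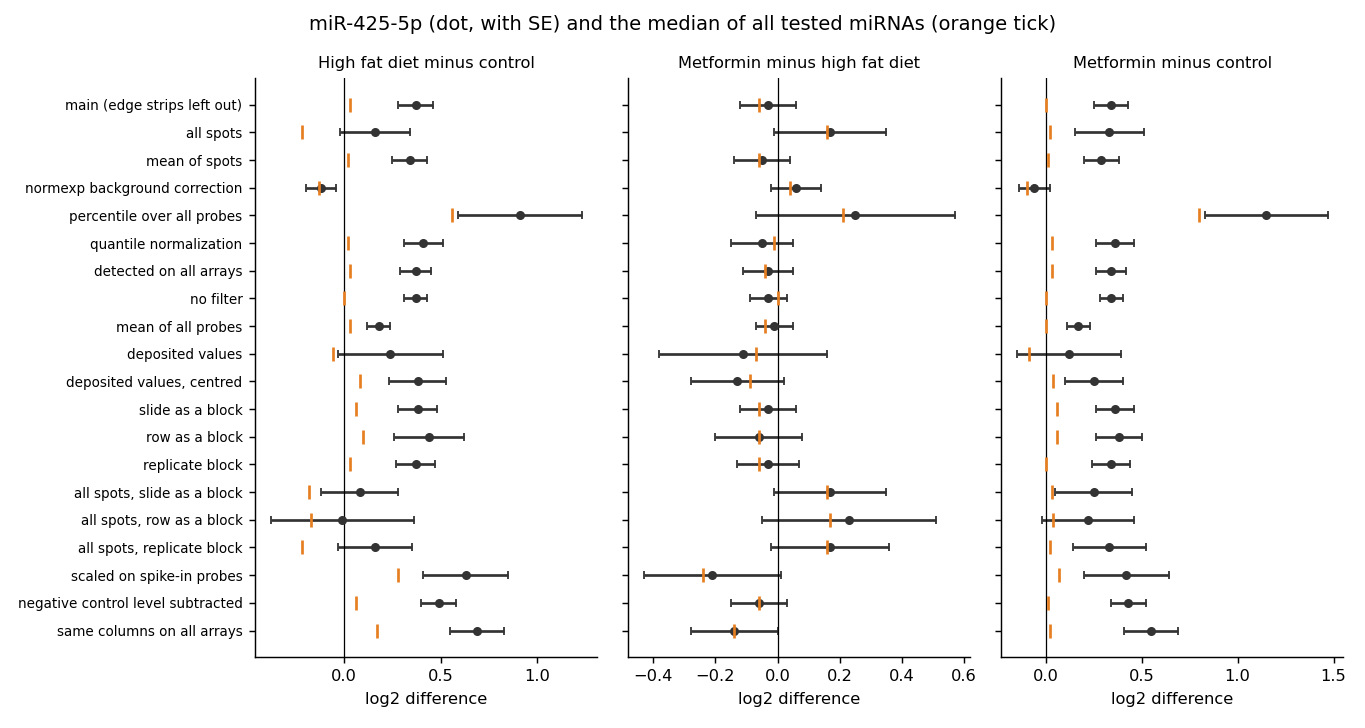
Log2 difference of miR-425-5p (dots, bars are SE) in each comparison (panels) under each way of processing the arrays (rows), beside the median of all tested miRNAs in the same fit (orange ticks). For high fat diet minus control the dots run from -0.12 with normexp to 0.91 with the percentile over all probes, and in metformin minus high fat diet they stay near the median of all miRNAs.

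The position of an array on the slide was not balanced either. Of the 9 arrays 8 shared a slide, with all high fat diet arrays in row 1 and both control arrays in row 2, and control array 3 lay in row 1 of another slide. With the row as a block, high fat diet minus control was 0.44 (SE 0.18) with the strips left out and -0.01 (SE 0.37) with all spots. The fits with the row used the 8 arrays of the shared slide, and so left out control array 3. On that slide only the metformin group had arrays in both rows, so the row term rests on that group. With the slide as a block, high fat diet minus control was 0.38 with the strips left out and 0.08 with all spots. These are also the values without control array 3, since the slide term takes up that single array. For metformin minus control the row block gave 0.38 (SE 0.12, adjusted p = 0.0978 by limma). Within row 1 the third control array stood at -3.71, below the high fat diet arrays (-3.45 to -3.25) and the first metformin array (-3.43), but on its own slide. Within row 2 the control arrays stood at -3.73 and -3.78, below the metformin arrays at -3.44 and -3.32. No row of 1 slide held both control and high fat diet arrays.

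The tested miRNAs whose levels followed miR-425-5p most closely over the 9 arrays were found by Pearson's r, given as a description, since all arrays share 1 scaling step and the differences between groups enter it. They were miR-423-5p (0.931), miR-24-3p (0.912), miR-350-3p (0.901), miR-1839-5p (0.870) and miR-342-3p (0.865), where the median over 142 miRNAs was 0.133. After each group's mean was taken out, r was 0.704 to 0.794 for the first 4 and 0.160 for miR-342-3p. With all spots r was 0.713 for miR-350-3p and 0.551 for miR-342-3p, and between -0.290 and -0.015 for the other 3. From control to high fat diet the 5 stood at 0.25, 0.17, 0.35, 0.39 and 0.39 in that order, and from high fat diet to metformin at -0.08, -0.03, -0.07, -0.17 and -0.13, beside 0.37 and -0.03 for miR-425-5p.

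miR-423-5p and miR-24-3p belong, like the pair itself, to a list of 12 miRNAs commonly used as references for RT-qPCR, of which 10 could be tested and 2 were detected on no array, miR-191-5p and miR-423-3p. In high fat diet minus control, with the strips left out, 0 of the 9 others passed by limma, beside 14.0% of all tested miRNAs. With miR-425-5p, whose value in this contrast chose the pair, all 10 differences were above 0. Their median was 0.10, beside 0.03 over all tested miRNAs, most of which were thus above 0 as well. Of the 10, the smallest was that of miR-93-5p at 0.02. The next largest after miR-425-5p was that of miR-423-5p at 0.25 (SE 0.08, adjusted p = 0.0624 by limma). With metformin 0 of the 10 passed against high fat diet (median -0.05, beside -0.06 over all tested miRNAs) or against control (median 0.08, beside -0.00), where 1.40% of all tested miRNAs passed in each. With all spots 0 passed in any comparison, beside 6.47% of all tested miRNAs in high fat diet minus control, 5 of 10 were above 0 in high fat diet minus control, and the median there was -0.00, beside -0.22 over all tested miRNAs.

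Other miRNAs that share a primary transcript are given as a description of how closely such neighbours were read on these arrays. Values for pairs that share no transcript are not set beside them. Whether neighbours were closer than other miRNAs was not tested. Of 29 pairs listed, the pair described here included, 19 had both members tested. In high fat diet minus control, with the strips left out, the median gap between the differences of the 2 members was 0.08, from 0.00 for miR-23a-3p and miR-27a-3p (0.17 each) to 0.33 for miR-193a-3p (0.32) and miR-365-3p (-0.01). The median r between the members over the 9 arrays was 0.602, from -0.083 to 0.914. With all spots, over 18 pairs, the median r was 0.202 and the median gap 0.16, up to 2.07 for let-7f-5p (-2.21) and let-7d-5p (-0.14). Several of these miRNAs, such as miR-16-5p and miR-194-5p, are also made from a second transcript, which the array cannot separate. A gap for miR-191-5p and miR-425-5p could not be computed.

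miR-191 and miR-425 are also made by blood and stromal cells, so marker miRNAs of other cell types are given beside the result. Of 9 leukocyte markers 4 were tested and 5 were detected on no array, miR-142a-5p, miR-150-5p, miR-155-5p, miR-146b-5p and miR-342-5p. Their summed log2 level lay between -1.03 and -0.79 in control, -0.81 and -0.66 in high fat diet and -0.99 and -0.83 in metformin, so control and high fat diet overlapped. Of these 4, miR-342-3p rose with the high fat diet (0.39, SE 0.09, adjusted p = 0.0174 by limma), as did 4.20% of all tested miRNAs in that direction, while miR-146a-5p was at 0.15, miR-223-3p, the myeloid marker, at 0.09 and miR-142a-3p at -0.13. With all spots miR-342-3p was at 0.26 (adjusted p = 0.363 by limma) and 0 of the 4 passed, with a median of -0.29.

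Of 7 markers of stellate and mesenchymal cells 3 were tested, and miR-143-3p, miR-145a-5p and miR-214-5p were detected on no array. The summed level of the 3 lay between -1.71 and -1.67 in control, -1.47 and -1.23 in high fat diet and -1.58 and -1.52 in metformin, with no overlap of control and high fat diet. Among all tested miRNAs 37.1% did not overlap in that contrast (21.7% with the high fat diet higher). Of the 3 markers, miR-199a-5p and miR-199b-5p were detected on 2 of 3 control arrays and on all arrays of the other groups. They could be tested only through those groups, so nothing is read from the sum. Of the 3 markers, 1 rose with the diet, miR-199a-3p (0.31, SE 0.08, adjusted p = 0.0301 by limma, beside 4.20% of all tested miRNAs higher), and it did not pass with all spots (0.57, SE 0.23, adjusted p = 0.158). Endothelial miR-126a-3p, the only one of 3 such markers tested, lay between 1.39 and 1.55 in control, 1.65 and 1.67 in high fat diet and 1.43 and 1.71 in metformin. The summed level of 5 hepatocyte markers lay between 6.70 and 6.88 in control, 6.62 and 6.78 in high fat diet and 6.74 and 6.91 in metformin. That sum follows miR-122-5p, at -0.10 in high fat diet minus control. The other 4 were above 0, with miR-148a-3p at 0.37 (adjusted p = 0.0624 by limma) and miR-101a-3p at 0.28 (adjusted p = 0.136), and the median of the 5 was 0.22, beside 0.03 over all tested miRNAs. With all spots 1 of the 5 was above 0 and the median was -0.09, beside -0.22. In both readings 0 of the 5 passed. The only erythroid marker tested, miR-451a, lay between -1.57 and -0.13 in control, -0.99 and -0.53 in high fat diet and -1.94 and -1.72 in metformin, and 0 of 5 biliary markers could be tested. The part of these cell types in the miR-425-5p difference was not tested.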

How the data were processed

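Liver miRNA of 9 pools was measured on 1-colour Agilent arrays. Per the file headers, the deposited scanner files hold spot intensity after background subtraction by Agilent Feature Extraction 11.5.1.1 (10.7 per the submitters' processing notes; the difference was not resolved), with no scaling between arrays. The authors' deposited table holds log2 values, which equalled the log2 total signal of the software plus a constant per array but for 0 to 6 miRNAs (tolerance 0.001).

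Edge strips were found from bright probes (80th percentile of their spots over 100), whose spots under 50% of that level were taken as dark. Blocks of 4 columns were removed inward from each edge wherever 10% or more of those spots were dark, stopping at 2 successive blocks below this. Each probe was read as the median of its other spots without non-uniformity marks. Probes with fewer than 3 of them on an array (425 of 4415) were dropped. Values were divided by the 75th percentile of the 187 probes detected throughout, floored at 0.0406 and put on the log2 scale. With all spots, the mean of spots without outlier marks was used, with 124 probes and a floor of 0.0272. The brightest probe stood for each miRNA. limma 3.58.1 in R 4.3.3 fitted 3 group means, two-sided, with Benjamini-Hochberg adjustment over all miRNAs tested. The strip finder and the fit were tested on simulated data. The number of arrays limits the precision.

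The members, the lists (references, shared transcripts, cell types) and the reading without strips were chosen with earlier results of these data known. Named are the 2 members, their opposite arms, seed sharers, the 5 miRNAs most correlated with a member, and list members past the threshold or at the extremes. The planned within-array difference and correlation of the 2 members were not run, because miR-191-5p was not detected. The normexp alternative used the median spot signal, as the files hold no mean signal. 0 pairs of arrays were identical. Alternatives to each step, and the batch and replicate blocks, are given in the closing section.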

Additional observations from a re-analysis of the deposited data

Results flagged for a closer look

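miR-191-3p, which entered no comparison, was marked as detected by the scanner software on 1 of 9 arrays. This was the third metformin array, with a total signal of 0.615 (arbitrary units). That array had no edge strips, and 1 of 7 spots of its brightest miR-191-3p probe was well above background. The software, which uses spots in the strips as well, marked 190 miRNAs as detected there. On the control arrays, which all had strips, it marked 136 to 156, so the single mark is not read as a difference between groups.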

How the results depend on the processing

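For miR-425-5p, high fat diet minus control was 0.37 with the strips left out. It was 0.16 with all spots, 0.91 with the percentile over all probes (between 0.61 and 1.6 in intensity, since most probes are dark), 0.18 with the mean of both probes, where the second lay at or near the floor, and 0.24 in the authors' deposited table. It turned to -0.12 with normexp. With all spots it was 0.08 with the slide, -0.01 with the row and 0.16 with the replicate block. Among alternatives chosen after seeing the data it was 0.63 on spike-in scaling (8 probes), beside a median of 0.28 over all tested miRNAs. Among these it was also 0.49 with the negative control level subtracted and 0.69 in the 32 columns kept on all arrays. Leaving out each array in turn gave 0.32 to 0.47 with the strips left out and 0.06 to 0.37 with all spots. Metformin minus high fat diet was -0.03, and turned to 0.17 with all spots, 0.06 with normexp and 0.25 with the percentile over all probes, and with all spots to 0.17 with the slide, 0.23 with the row and 0.17 with the replicate block. Without each array it ran from -0.07 to 0.03 (the latter without the second high fat diet array) and with all spots from 0.00 to 0.29. Metformin minus control was 0.34, turned to -0.06 with normexp, and passed only with the percentile over all probes (1.15, adjusted p = 0.0126 by limma, range 0.0126 to 0.952), where the median of all miRNAs was 0.80. It was 0.12 in the deposited table, 0.17 with the mean of both probes, 0.22 with all spots and the row as a block and 0.55 in the columns kept on all arrays. Without each array it ran from 0.30 to 0.44 with the strips left out and from 0.24 to 0.45 with all spots, and did not pass. The causes of these shifts were not tested.

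The count of miRNAs past the threshold was 20 for high fat diet minus control. It was 9 with all spots, 1 with the percentile over all probes, 3 on spike-in scaling, 8 in a fit of these groups alone, 39 with the slide and 0 with the row as a block, with no filter and in the deposited table (0 to 7 with all spots and a block), and ran from 6 without the first high fat diet array to 40 without the third control array. With all spots, leaving out any array took the count of 9 to between 0 and 3. Metformin minus high fat diet had 2, and 0 to 5 over the alternatives. Metformin minus control had 2, and 98 with the percentile over all probes, otherwise 0 to 8.

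Deviations of arrays with the same replicate number correlated between -0.236 and 0.433 with the strips left out, and the labels give no pairing. With all spots they were above 0.1 for each pair of high fat diet and control (0.514, 0.426 and 0.229) and of metformin and control (0.406, 0.200 and 0.209), but not of metformin and high fat diet (0.150, -0.149 and -0.109). With the replicate block and the strips left out the differences of miR-425-5p were 0.37, -0.03 (adjusted p = 0.898 by limma) and 0.34 (adjusted p = 0.0872), and with all spots 0.16, 0.17 and 0.33 (adjusted p = 0.467 for the last). No call on miR-425-5p changed with the block.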
